A study of Mus musculus with 19 samples.

Results

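The genes described here encode the protein components of the cytosolic ribosome. They were chosen by symbol alone, as Rpl or Rps followed by a digit, Rplp0 to Rplp2 and Rpsa, and 14 further symbols (kin of a member such as Rpl22l1, and names such as Rps19bp1) were set aside by the same rule. This gave 80 members among the 50559 genes of the count table, 46 of the large and 34 of the small subunit. A total of 78 members were among the 15572 genes with enough counts to be tested. The other members, Rps23rg1 and Rps3a3, had 18 expected counts each over all immunoprecipitates, and Rps3a3 is annotated as a pseudogene. Rps3a2, also annotated as a pseudogene, was tested at a low level.

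A ribosome joins a small subunit, which reads the mRNA, to a large subunit, which forms the peptide bonds, and each cytosolic ribosomal protein is, apart from the stalk proteins, as a rule present once per subunit. Their mRNAs are short, abundant and begin with a C followed by a run of pyrimidines, the 5′ terminal oligopyrimidine (TOP) motif, through which mTORC1 and the RNA-binding protein LARP1 set how many of them are held by ribosomes. In neurons, as in other cells, these mRNAs move between stored and translated pools with nutrients and growth signals, and feeding and activity follow the light cycle in mice.

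Ribosome-bound mRNA was measured in cholinergic neurons of the spinal cord, a class that includes the motor neurons. ChAT-Cre;RiboTag fx/+ mice carry one Rpl22 allele that, after Cre recombination, yields RPL22 with a hemagglutinin (HA) tag, so that ribosomes of cells with a history of Chat promoter activity can be pulled down. The labels call these animals wild-type. All mice were 10-wk-old C57BL/6J males under 12 h light and 12 h dark with no further treatment, and the spinal cord of 1 mouse gave 1 library. Groups were 3 biological replicates at each of Zeitgeber Time (ZT) 0, 4, 8, 12, 16 and 20, where ZT0 is lights on and ZT12 is lights off, giving 18 HA immunoprecipitates, and 1 pooled input of whole spinal cord RNA. Values are mRNA held by tagged ribosomes, so a level here is neither the total mRNA nor the protein, and in a pull-down fewer cells and less RNA per cell cannot be told apart.

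Totals ran from 6302150 to 22406859 expected counts per immunoprecipitate, with 15239798 in the input. Levels below are CPM, counts divided by the library total and expressed on edgeR's per-library scale after TMM, a correction for library composition. The 7 cholinergic markers summed to between 4206 and 5023 CPM in the immunoprecipitates and to 455 CPM in the input, while the 7 oligodendrocyte markers summed to between 1501 and 2874 CPM against 21566 CPM, with none of either list at 0. Astrocyte markers reached 131 to 203 CPM against 2913 CPM in the input and microglia markers 8.33 to 15.3 CPM against 164 CPM. The highest oligodendrocyte sum, 2874 CPM, was in ZT16 replicate 3, a library that returns below.

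Together the members made up between 1.27% and 2.31% of the counts of an immunoprecipitate, before scaling. Their summed level was 14173, 16552 and 14109 CPM in the ZT0 replicates 1 to 3 and 17850, 23779 and 20506 CPM at ZT8. All 3 ZT8 libraries lay above all 3 ZT0 libraries. At ZT16 the sum was 13810, 12591 and 19888 CPM, so that replicate 3 stood within the ZT8 range and the others below it. ZT4 gave 16701, 18617 and 19521 CPM and ZT12 gave 19237, 17922 and 14959 CPM, which overlapped each other and ZT8. At ZT20 the sum was 14273, 15783 and 17583 CPM, all under the lowest ZT8 library. Means ± SD (n = 3) in CPM, in order of time from lights on, were 14945 ± 1393, 18279 ± 1440, 20711 ± 2970, 17373 ± 2192, 15429 ± 3909 and 15879 ± 1657. The small-subunit genes took a larger part of the total at ZT8, where the ratio of summed large- to small-subunit CPM averaged 1.62 (range 1.55 to 1.70), against 1.85 (1.78 to 1.89) at ZT0.

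**Figure D1:**
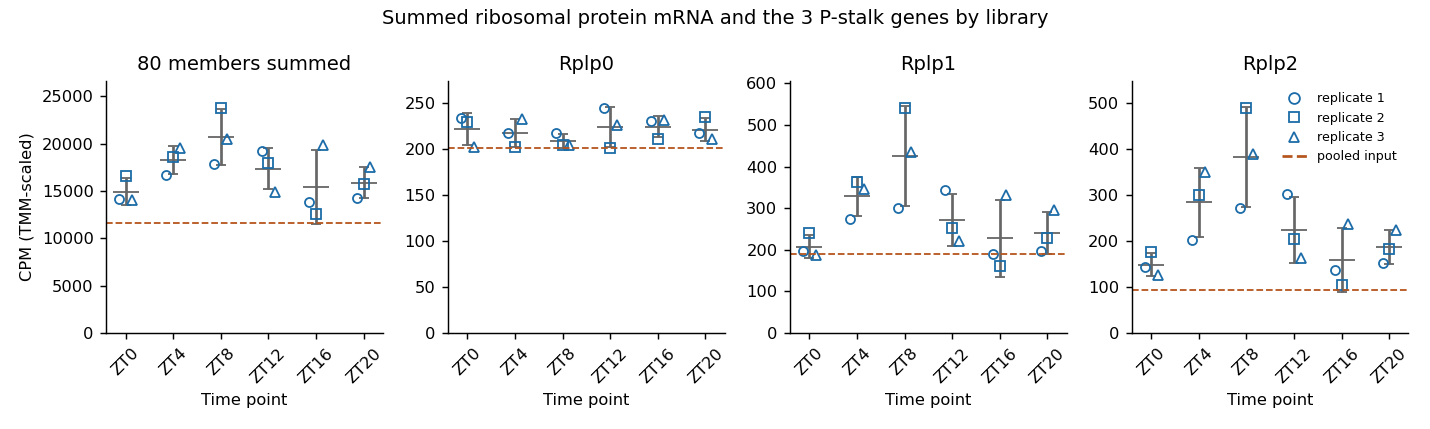
Summed CPM of the 80 members and CPM of the 3 P-stalk genes, Rplp0, Rplp1 and Rplp2, in each of the 18 immunoprecipitates (TMM-scaled CPM on the y axes, time point on the x axes). Open symbols are single libraries shaped by replicate number, bars are the mean and SD (n = 3), and the dashed line is the pooled input. The sum, Rplp1 and Rplp2 were highest at ZT8 and Rplp0 stayed between 200.3 and 244 CPM in every library.

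In tests for rhythm over the day, no member passed JTK_Cycle, the rank test used by the study, at an adjusted P of 0.05, and neither did most other genes (0.0385% of genes tested). With the p-value corrected only for the periods and phases tried within each gene, 18 members passed, and 15.8% of all genes tested did. The best period of each of these 18 members was 20 h, the shortest tried. A 24-h cosinor in edgeR called 13 members, against 6.24% of all genes tested. These were Rplp2, Rpl32, Rpl22, Rps3a1, Rps13, Rplp1, Rps21, Rps27a, Rpl38, Rpl35a, Rpl24, Rps15a and Rps18, with edgeR adjusted P between 0.0377 and 0.0490, amplitudes between 0.28 and 0.58 on the log2 scale and fitted peaks between ZT6.99 and ZT7.72, in the second part of the light phase. The edgeR test for any difference among the 6 time points called 9 members, all within those 13, against 6.74% of genes.

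Most members had their highest values at the same time of day, whether or not they passed. Fitted peaks fell between ZT6 and ZT10 in 65 of 78 members, or 83.3%, whereas 26.4% of all genes tested peaked in that window. Small-subunit genes did so in 30 of 32 cases and large-subunit genes in 35 of 46. The group mean was highest at ZT8 for 61 members and lowest at ZT0 for 52, where 27.8% and 18.5% of all genes did the same. These peak times come from genes measured in the same libraries and are not independent of one another.

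The number of rhythm calls depended on single libraries. The cosinor count was 0 without ZT0 replicate 2 or 3, ZT4 replicate 2 or 3, ZT8 replicate 2 or 3, ZT12 replicate 1, ZT16 replicate 1 or 2, or ZT20 replicate 1. It was 4 without ZT0 replicate 1, 8 without ZT20 replicate 2, 36 without ZT12 replicate 3, 47 without ZT16 replicate 3 and 46 without ZT20 replicate 3. The count for any difference among time points was 0 without ZT0 replicate 1 or 3, ZT4 replicate 2, ZT8 replicate 2 or 3, or ZT16 replicate 1, and 1 without ZT4 replicate 3, ZT12 replicate 2, ZT16 replicate 2 or ZT20 replicate 2. It was 3 without ZT20 replicate 1, 15 without ZT20 replicate 3, 35 without ZT8 replicate 1 and 51 without ZT16 replicate 3. JTK_Cycle called 10 members without ZT16 replicate 3 and 0 without any other single library. P was adjusted over all genes in each fit, so these counts also move with the number of calls over all genes. That number is not given here for fits without a library, and the same limit holds for such counts below.

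ZT8 against ZT0 gave the most calls of the 15 pairs of time points. Ribosomal protein mRNAs were higher on cholinergic ribosomes late in the light phase than at lights on, with 45 of 78 members higher in edgeR's quasi-likelihood test while 8.95% of all genes were. Of the small-subunit genes 24 of 32 rose and of the large-subunit genes 21 of 46. A single member, Rpl3, fell, against 9.02% of all genes. The median log2 change was 0.59 over members and -0.00 over all genes, and 11 members had a change below 0. All 3 ZT8 libraries were above all 3 ZT0 libraries for 52 members, an order found in 16.9% of all genes, and all 3 were below for Rpl23a, Rpl3 and Rpl4.

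Rplp2 moved furthest. It encodes one of the acidic proteins of the P stalk, the arm of the large subunit that recruits and activates the elongation factors, and lies at chr7:141447651-141451359 (GRCm38). It measured 144, 176 and 127 CPM at ZT0 and 272, 489 and 389 CPM at ZT8. The groups did not overlap, and the log2 change was 1.36 (SE 0.28, edgeR adjusted P = 0.0062), or 2.58-fold. At ZT16 it measured 137, 104 and 237 CPM, with every value under the lowest at ZT8 (log2 change -1.27, SE 0.28, edgeR adjusted P = 0.0085).

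Rplp1, its partner in the stalk, stood at 197, 239 and 186 CPM at ZT0 and 300.4, 540.5 and 436 CPM at ZT8 (log2 change 1.04, SE 0.24, edgeR adjusted P = 0.00884). The Rplp1 groups did not overlap either. Rplp0, the base on which the Rplp1 and Rplp2 dimers sit, measured 233, 229 and 202 CPM at ZT0 and 217, 204 and 204 CPM at ZT8 (log2 change -0.09, SE 0.09, edgeR adjusted P = 0.573), and these groups overlapped. The CPM ratio of Rplp2 to Rplp0 was 0.672 ± 0.0827 (SD, n = 3) at ZT0 and 1.85 ± 0.575 at ZT8, with ZT8 libraries between 1.25 and 2.40. The ratio of Rplp2 to Rplp1 was 0.901 ± 0.00685 at ZT8 and 0.716 ± 0.0280 at ZT0. The ratio of Rplp2 to Rplp0 thus did not overlap between the groups, and neither did that of Rplp2 to Rplp1.

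Rpl22, the tagged protein itself, is an RNA-binding component of the large subunit that the cell can do without. Reads from its tagged and untagged alleles were counted together here, at chr4:152324436-152334082. It measured 76.0, 85.9 and 70.5 CPM at ZT0 and 93.3, 139 and 118 CPM at ZT8 (log2 change 0.60, SE 0.15, edgeR adjusted P = 0.0119). The groups were apart, as they were from ZT16 at 77.1, 61.7 and 83.3 CPM (log2 change -0.66, edgeR adjusted P = 0.00896). Read against all genes, the mRNA of the protein that carries the HA tag thus varied with time of day in the same direction as most members. With the offset for transcript length described below, it passed in neither contrast. Whether the amount of tagged protein followed was not measured. Rpl22l1, the paralog that can take its place in the ribosome and that lies outside the symbol rule, also rose, from 83.6, 103 and 94.1 CPM to 123, 254 and 179.6 CPM (log2 change 0.99, SE 0.25, edgeR adjusted P = 0.0116). The ratio of Rpl22l1 to Rpl22 was 1.21 ± 0.118 at ZT0, 1.55 ± 0.254 at ZT8 and 0.701 in the input.

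Among the small-subunit genes, Rps21 rose from 83.5, 108 and 89.3 CPM to 150.0, 272 and 208 CPM (log2 change 1.17, SE 0.27, edgeR adjusted P = 0.00916). Rps27a, made as a fusion with ubiquitin, rose from 228, 299 and 237 CPM to 369, 725 and 535 CPM (log2 change 1.09, SE 0.25, edgeR adjusted P = 0.0086). In both, ZT8 replicate 1 was the lowest of its group and still above every ZT0 library. Rps13 rose by 0.98 on the log2 scale and Rps3a1 by 0.90, and of the large-subunit genes Rpl38, known for its part in the translation of Hox mRNAs, rose by 1.21, Rpl24 by 0.71 and Rpl32 by 0.60.

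Rpsa, also known as the laminin receptor, stood at 513, 587 and 481 CPM at ZT0 and 678, 855 and 758 CPM at ZT8 (log2 change 0.54, SE 0.14, edgeR adjusted P = 0.0127), with no overlap. Rps6, the substrate of the S6 kinases downstream of mTORC1, stood at 330.0, 379 and 335 CPM and 416, 471 and 428 CPM, again without overlap, but its change of 0.33 (SE 0.13) missed the threshold (edgeR adjusted P = 0.0705). Separation of 3 against 3 libraries was therefore met by members that did not pass.

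Other members of known role did not pass. Rps4x, encoded on the X chromosome, ranged from 166 to 172 CPM at ZT0 and from 171 to 178 CPM at ZT8 (log2 change 0.04, edgeR adjusted P = 0.797). Rpl10, which joins the large subunit late in its maturation and is also X-linked, had a log2 change of -0.05 (edgeR adjusted P = 0.777). Rps3, at the mRNA entry of the small subunit, measured 217, 239 and 198 CPM at ZT0 and 256, 259.7 and 248 CPM at ZT8, without overlap, and its change of 0.23 missed the threshold (edgeR adjusted P = 0.213). Rpl5 and Rpl11, which bind 5S ribosomal RNA and restrain Mdm2 when free of the ribosome, gave -0.09 and 0.23 (edgeR adjusted P = 0.561 and 0.228). Of these 5 members none passed in the contrast of ZT16 with ZT8 either. With the offset for transcript length described below, Rpl10 was called in both contrasts, lower at ZT8.

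Rpl3, which lies next to the peptidyl transferase centre and is encoded at chr15:80077781-80083406, went the other way. It measured 386, 377 and 370.3 CPM at ZT0, 337, 316 and 308 CPM at ZT8 and 372, 392 and 374 CPM at ZT16. ZT8 was below both other groups without overlap, and Rpl3 fell by 0.24 from ZT0 to ZT8 (SE 0.08, edgeR adjusted P = 0.0445) and rose by 0.24 from ZT8 to ZT16 (edgeR adjusted P = 0.0425). Rpl4, a lining protein of the exit tunnel, measured 503, 469 and 505 CPM at ZT0 and 465, 384 and 374 CPM at ZT8 without passing (log2 change -0.27, edgeR adjusted P = 0.075). Rpl23a, at the tunnel exit, gave -0.17 and Rpl15 -0.15, neither past the threshold.

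By site in the ribosome, where 45 of 78 members and 8.95% of all genes rose from ZT0 to ZT8, 2 of the 3 P-stalk genes rose, as did 3 of the 8 genes of the exit tunnel and its port, Rpl17, Rpl35 and Rpl39, and 2 of the 4 of the mRNA channel, Rps26 and Rps28. Median changes were 1.04, 0.36 and 0.40. Neither of the 2 genes that bind 5S ribosomal RNA passed. Lists of this size do not set one site apart from the other members.

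**Figure D2:**
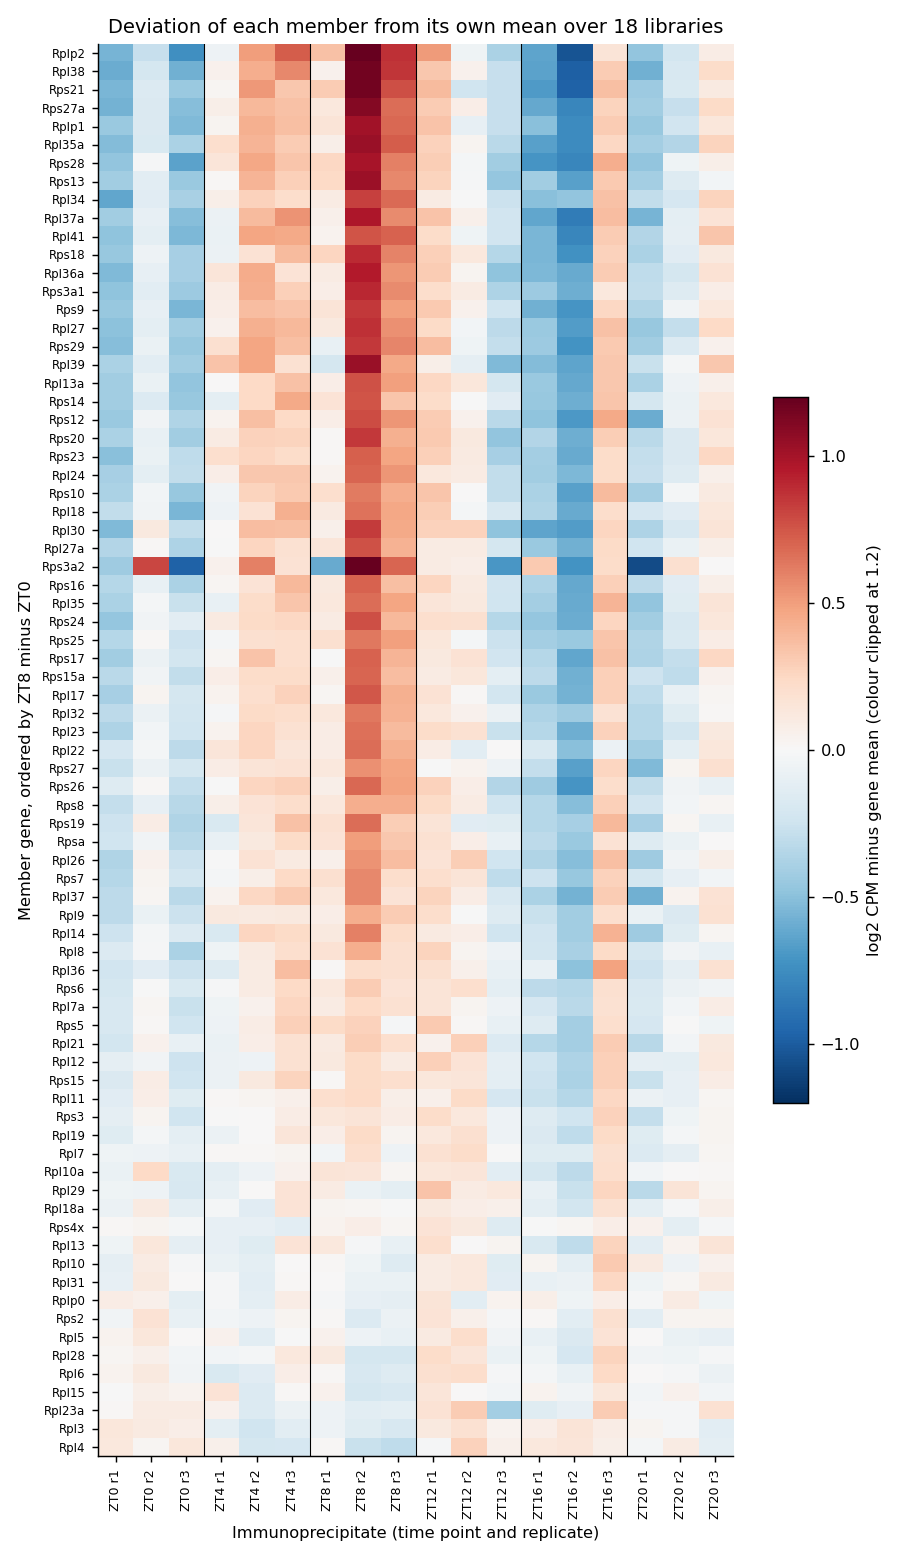
Heat map of 77 of the 78 tested members (rows, ordered by log2 change from ZT0 to ZT8) in the 18 immunoprecipitates (columns, by time point and replicate). Colour is log2 CPM minus the member's own mean over the 18 libraries, clipped at 1.2. ZT8 replicates 2 and 3 were high and ZT16 replicates 1 and 2 low in most rows, ZT16 replicate 3 was high, and the lowest rows, among them Rpl3 and Rpl4, ran the other way.

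The contrast of ZT8 with ZT0 rested on few libraries. The number of members past the threshold in either direction, 46 with all libraries, was 1 without ZT8 replicate 2, 2 without ZT0 replicate 1, 11 without ZT0 replicate 3 and 21 without ZT8 replicate 3. The median change stayed between 0.45 and 0.73 when libraries or replicate numbers were left out, so the size of the shift moved less than the number of calls.

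From ZT8 to ZT16 the members were lower again, 37 of 78 against 7.8% of all genes, and Rpl3 alone was higher, against 9.11% of all genes. The median log2 change was -0.56, with 66 members below 0. This contrast shares its ZT8 libraries with the one above, so the 37 members past the threshold in both, of 46 and 38, are not a repeat of the finding. All 3 ZT8 libraries were above all 3 ZT16 libraries for 2 members, Rplp2 and Rpl22, an order that 13.5% of all genes showed, and ZT16 replicate 3 had the highest summed level of its group.

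Without ZT16 replicate 3 the count past the threshold was 60 and the median -0.79. Leaving out ZT8 replicate 3 gave 11, ZT16 replicate 1 gave 2, and either ZT8 replicate 2 or ZT16 replicate 2 gave 0, with medians of -0.40 and -0.38 in the last 2 cases. ZT16 replicate 3 also held the highest oligodendrocyte marker sum, 2874 CPM, where the other ZT16 libraries held 1929 and 1946 CPM, and the part of this in its member levels was not tested by itself. With the mean log2 CPM of the oligodendrocyte markers, which is not their sum, as a covariate, no member passed edgeR's test between ZT16 and ZT8 while the median was -0.63. With only the 6 libraries of the pair in the fit no member passed edgeR's test and the median was -0.56. With all libraries 53 members passed edgeR's test at an unadjusted P of 0.05, against 31% of all genes, and DESeq2 called 40 after adjustment, against 21.1% of the genes it gave an adjusted P.

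From ZT8 to ZT20 no member passed edgeR's test after adjustment, nor did any other gene (0% of genes). The median log2 change was -0.49. At an unadjusted P of 0.05, 48 members were lower and 0 higher, while 10.4% of all genes were lower. DESeq2 called 15 members lower, against 4.2% of the genes it gave an adjusted P. All 3 ZT8 libraries were above all 3 ZT20 libraries for 28 members, against 10.4% of genes. The largest log2 changes were -1.03 for Rplp2 (edgeR adjusted P = 0.0703), -0.93 for Rps21, -0.90 for Rpl38 and -0.84 for Rps13, and at the other end 0.17 for Rpl4, 0.16 for Rpl23a, 0.11 for Rpl15 and 0.09 for Rpl3. Without ZT8 replicate 1 edgeR called 41 members and without ZT16 replicate 3, which is in neither group but enters the estimate of spread, 23. In the other 12 of the 15 pairs of time points edgeR called none of the members and at most 10 of all genes, and member medians ran from -0.36 between ZT8 and ZT12 to 0.35 between ZT0 and ZT4.

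Levels of the members followed one another closely across libraries. The Pearson correlation of a member's CPM with the summed CPM of the others over the 18 immunoprecipitates had a median of 0.947, and 59 of 78 members were over 0.8. Below 0 were 4 members, Rpl4 (-0.676), Rpl3 (-0.552), Rpl15 (-0.289) and Rplp0 (-0.157). The same correlation had a median of -0.0144 over all genes tested and of 0.404 over the 352 genes under 500 nt that are no members. All of these points share the libraries and their depth.

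Transcript length went with the size of the change. Over members, the log2 change from ZT0 to ZT8 had a Spearman rho of -0.50 with the length of the annotated transcript (n = 78) and of -0.64 with coding length (n = 77), a measure chosen after the data were seen, and rho was -0.14 over 14851 other genes. In members under 500 nt the median change was 0.90 (n = 17), from 500 to 750 nt 0.63 (n = 22), from 750 to 1000 nt 0.32 (n = 22) and from 1000 to 2000 nt 0.28 (n = 15). Other genes in the same classes had medians of 0.53, 0.35, 0.25 and 0.02. Members were thus above other genes in each of these 4 classes, with the smallest gap from 750 to 1000 nt.

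**Figure D3:**
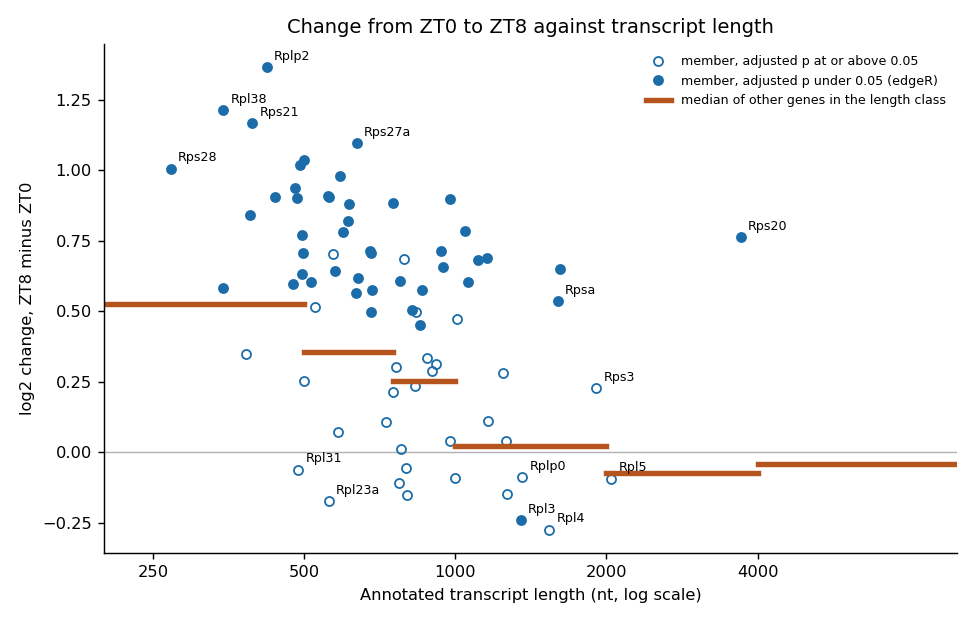
Log2 change from ZT0 to ZT8 (y axis) of 77 of the 78 tested members against the length of the annotated transcript in nt (x axis, log scale). Filled circles passed edgeR's test at an adjusted P of 0.05, open circles did not, and bars mark the median of all other genes in each length class. Members under 500 nt had a median of 0.90 and the other genes of that class one of 0.53, and Rpl31 and Rpl23a lay well under the bar of their class.

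Libraries in which the members were high were also those in which other short transcripts were high. In each library the median deviation of 352 other genes under 500 nt from their own means, minus that of 9846 other genes of 2000 nt or more, was taken as the tilt of that library towards short transcripts. ZT8 replicate 2 had the largest tilt, 0.53, and the largest median deviation of the members, 0.63. ZT16 replicate 2 had the lowest of both, -0.47 and -0.51. ZT8 replicate 1 stood near 0 in both, at 0.04 and 0.09, unlike replicate 3 of that group, at 0.46 and 0.37. ZT16 replicate 3 had a tilt of 0.24 and a member deviation of 0.27, where ZT16 replicate 1 had -0.30 and -0.34. The ratio of summed large- to small-subunit CPM was lowest in ZT8 replicate 2 (1.55) and highest in ZT16 replicate 2 (1.91), the libraries at the ends of the tilt. The part of the tilt in that ratio was not tested.

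**Figure D4:**
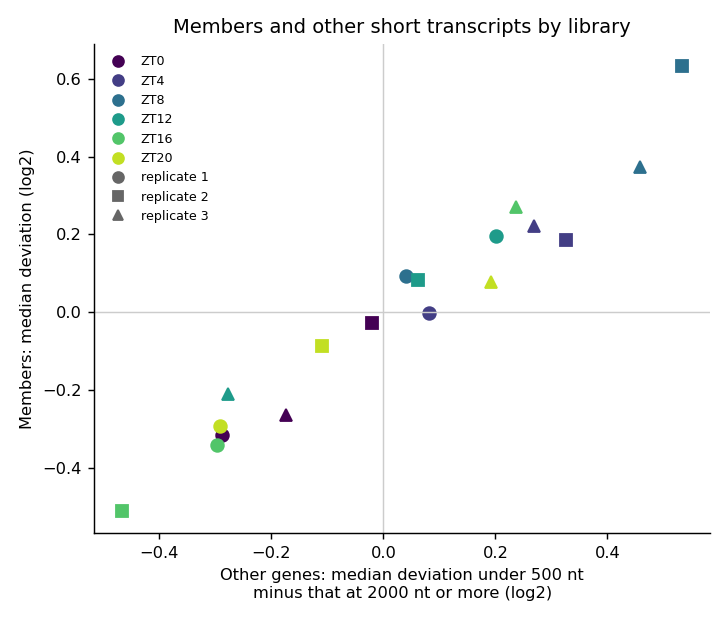
Median log2 deviation of the members (y axis) against the tilt of the library, the median log2 deviation of other genes under 500 nt minus that of other genes of 2000 nt or more (x axis), for the 18 immunoprecipitates. Colour is time point and shape is replicate number. The points rise from ZT16 replicate 2 at the lower left to ZT8 replicate 2 at the upper right, and the time points overlap along that line.

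With an offset per library for a smooth trend in transcript length, the median change of members from ZT0 to ZT8 was 0.25 in place of 0.59, and the medians of other genes in the length classes lay between -0.02 and 0.01. Of the members, 28 were then higher in edgeR's test, against 9.97% of all genes, and 8 were lower. Among these 8 were Rpl3, Rpl10, Rpl15, Rpl23a and Rpl31. Rpl10 was 0.32 lower at ZT8 than at ZT0 (edgeR adjusted P = 0.0254) and 0.41 higher at ZT16 than at ZT8 (edgeR adjusted P = 0.00858). Over all 15572 genes 2938 were called in either direction with the offset, 1553 of them higher, which leaves the 8 lower members near the share over all genes. Rplp2 was still 0.84 higher, Rps27a 0.72 and Rpsa 0.56, while Rpl23a was 0.56 lower and Rpl31 0.49 lower on the log2 scale. Rpl22 no longer passed, with 0.12 from ZT0 to ZT8 (edgeR adjusted P = 0.478) and -0.19 from ZT8 to ZT16 (edgeR adjusted P = 0.254). From ZT8 to ZT16 the median with the offset was -0.20, with 25 members lower, against 9.05% of all genes, and 10 higher. Over all genes 2836 were called in either direction here, 1410 of them lower. The direction of single members thus depended on whether they were read against all genes or against genes of like length, while Rplp2, Rps27a and Rpsa were higher at ZT8 on both scales. The part of the tilt in the members' change was not tested beyond these values.

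Cell-type markers beside the contrast of ZT8 with ZT0 were as follows. Of the 7 cholinergic markers 4 fell, Chat, Slc5a7, Slc18a3 and Ache, and none passed as higher, where 9.02% of all genes fell. Chat, which encodes the acetylcholine-synthesising enzyme, measured 68.4, 47.2 and 52.7 CPM at ZT0 and between 8.30 and 23.3 CPM at ZT8, without overlap (log2 change -1.74, SE 0.43, edgeR adjusted P = 0.0115). These 4 transcripts are between 2176 and 5180 nt long. The summed cholinergic markers ranged from 4292 to 4764 CPM at ZT0 and from 4227 to 4682 CPM at ZT8, an overlap that rests on Prph, a neurofilament-type protein of motor neurons. Prph makes up most of the sum and went the other way, with 2498, 2792 and 2361 CPM at ZT0 and 3021, 3335 and 3200 CPM at ZT8, without overlap (log2 change 0.32, edgeR adjusted P = 0.0508). The summed oligodendrocyte markers ranged from 1818 to 2201 CPM and from 1729 to 1991 CPM and overlapped, with Mbp and Mal lower in edgeR's test of the 7. The sum of the 4 inhibitory-neuron markers was lower at ZT8 without overlap, 246 to 299 CPM against 321 to 337 CPM at ZT0, and Gad2 and Slc32a1 fell. The sum of the 6 astrocyte markers was also lower without overlap, 131 to 164.5 CPM against 165.2 to 185 CPM, with none of the 6 past the threshold in edgeR. Of the microglia markers Cx3cr1 was higher at ZT8, while the sums of the microglia, excitatory-neuron, endothelial and erythrocyte markers overlapped. The part of these markers in the members' change was not tested, apart from a covariate for the oligodendrocyte markers. With the mean log2 CPM of these markers as the covariate 36 members passed between ZT8 and ZT0.

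Beside the members, 17 genes listed as carrying a TOP motif, most of them translation factors, split evenly. Of these, 6 were higher and 6 lower at ZT8 than at ZT0. Over all genes 8.95% were higher and 9.02% lower, so calls in this list were above the share over all genes in both directions. Its median change was 0.06. Eef1b2, the exchange factor of elongation factor eEF1A, rose from 214, 243 and 216 CPM to 316, 519 and 386 CPM (log2 change 0.86, SE 0.19, edgeR adjusted P = 0.00747). Eif2s3x, a subunit of eIF2, rose by 0.59 and Eif3k by 0.55. Pabpc1, the poly(A)-binding protein and itself a TOP mRNA, fell by 0.82 (SE 0.21, edgeR adjusted P = 0.0118), from 46.4, 41.5 and 46.7 CPM to 34.8, 20.7 and 21.1 CPM. Genes of this list were thus called in both directions, whereas of the 46 members called all but Rpl3 were higher. The transcripts of Eef1b2 and Eif2s3x are 1939 and 3647 nt long and that of Pabpc1 is 2817 nt.

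Of 3 ribosomal proteins whose symbols fall outside the rule, Fau, made as a fusion with a ubiquitin-like protein, rose by 0.78 (SE 0.22, edgeR adjusted P = 0.0200) and the other two did not pass, with Rack1, a scaffold on the small subunit, at 0.19. Of 30 genes for ribosome assembly and ribosomal RNA synthesis, Gar1 (a protein of pseudouridylating particles), Polr1d (a subunit of RNA polymerases I and III) and Fbl (the fibrillarin methyltransferase) rose, by 0.91, 0.76 and 0.45, Bop1 (large-subunit assembly) fell by 0.65, and the median was -0.03. Higher calls in 3 of 30 and lower calls in 1 of 30 are near or under the shares over all genes, 8.95% and 9.02%. Of 15 genes of mTORC1 and the control of TOP mRNAs, Larp1 rose by 0.30 (edgeR adjusted P = 0.0144) and Rheb, the activator of mTORC1, Mtor and Tsc2 fell by 0.49, 1.05 and 0.79, against the same shares over all genes. Transcript levels of these regulators do not give the activity of the kinase.

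Compared per length, with CPM divided by the annotated transcript length in kb and averaged over the 18 immunoprecipitates, members had a median level of 269 CPM per kb (quartiles 180 and 361), against 5.27 for all genes tested. Rpl41 (760 CPM per kb), which encodes the smallest ribosomal protein, Rpl38 (741) and Rpl19 (668) stood highest, also by coding length. The lowest were Rps3a2 (5.04), Rps20 (33.2) and Rpl39 (89.0). Rps20 was divided by an annotated transcript of 3706 nt, and by coding length it ranked 50 and Rpl39 47 among the members. Ribosome-bound mRNA per length thus spanned a wide range among members, which includes any error in the annotated lengths.

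Against the pooled input, 11 of 78 members were at least 2-fold enriched with all 18 immunoprecipitates above the input. Of the 16828 genes compared 14% were, so the count of enriched members was near the share over all genes. No member was depleted by the same rule, against 25.4% of genes. The input is 1 library, so these ratios have no test, and its counts carry exact 95% Poisson intervals that cover counting error only. Rpl27 measured from 152 to 445 CPM in the immunoprecipitates and 80.5 CPM in the input (interval 76.5 to 84.7), a ratio of 3.13. Rpl38 gave 2.77 and Rpl24 2.45, and the other enriched members were Rplp2, Rps27a, Rpl18, Rpl37a, Rpl36, Rpl35, Rps13 and Rpl12. At the other end Rps27 measured from 27.3 to 63.0 CPM and 72.9 CPM in the input (69.1 to 76.9), a ratio of 0.602, with all 18 libraries below the input. Rps12 (0.711) and Rpl29 (0.848) followed, with 17 and 16 libraries below.

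The median ratio to the input was 1.41 over members, 8 of which were below 1, and 0.912 over all genes compared. Other short genes were also above the input, with a median log2 ratio of 0.62 under 500 nt where members had 0.50 (n = 17), and from 1000 to 2000 nt members had 0.58 (n = 15) and others 0.29. The summed members stood at 11581 CPM in the input, under all 18 immunoprecipitates. With libraries scaled by their totals alone the input sum was 14181 CPM and the lowest immunoprecipitate 12653 CPM, so that the order no longer held for every library, and 2 members were enriched and 1 depleted.

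**Figure D5:**
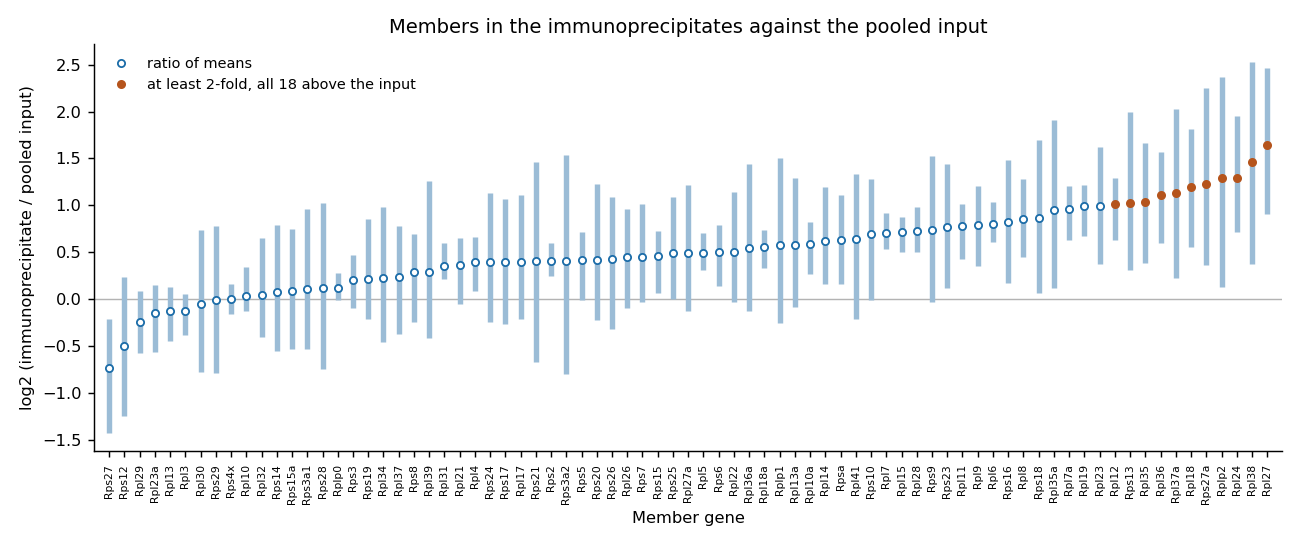
Log2 ratio of immunoprecipitate to pooled input (y axis) for 77 of the 78 tested members ordered by ratio (x axis). Points are the ratio of the mean of 18 immunoprecipitates to the input, bars span the lowest to the highest library, and filled points mark the 11 members at least 2-fold enriched with all 18 above the input. The ratio ran from 0.602 for Rps27 to 3.13 for Rpl27.

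Ribosomal protein genes have many processed pseudogenes of near-identical sequence, among which expected counts can be split. Rows named as pseudogenes of members numbered 318, of which 154 had a count, and held between 1.44% and 1.87% of the counts of members and pseudogenes together in the immunoprecipitates. For 7 members the share was over 5%, namely Rps13 (16.0%), Rpl15 (13.3%), Rps15a (12.9%), Rps6 (9.72%), Rpl38 (6.11%), Rpl27 (5.65%) and Rpl17 (5.10%), and the levels of these are the less certain. Adding the pseudogene counts to their members left 46 members past the threshold between ZT8 and ZT0 and 38 between ZT16 and ZT8.

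The TOP motif starts at the first transcribed base, so the letters around annotated starts were read from RefSeq promoters (GRCm38.p6). A total of 58 members had an entry and 50 had exactly 1. The windows below run from 35 bases before to 25 bases from the annotated start, 5′ to 3′ on the gene's strand, for the 3 members of highest and the 2 of lowest change from ZT0 to ZT8 among the members of known role and those of lowest cosinor p that had exactly 1 entry, and for Rps6. Rps21, Rps27a and Rplp1, with higher changes than Rps13 and Rps3a1, did not meet that condition. Capitals mark a C and at least 4 more C or T, beginning at the C of the run that is nearest to the start. Rps3a1 has none in its window. They lie at chr7:141447616-141447675 (plus strand), chr7:116334166-116334225 (minus), chr3:86142644-86142703 (minus), chr4:86857343-86857402 (minus), chr5:115559432-115559491 (plus) and chr5:107900493-107900552 (plus) in that order.
Rplp2: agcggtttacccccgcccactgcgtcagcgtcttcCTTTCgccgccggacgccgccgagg
Rps13: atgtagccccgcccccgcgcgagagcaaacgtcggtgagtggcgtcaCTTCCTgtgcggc
Rps3a1: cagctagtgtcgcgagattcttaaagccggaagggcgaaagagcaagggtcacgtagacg
Rps6: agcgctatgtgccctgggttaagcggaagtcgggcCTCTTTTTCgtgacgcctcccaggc
Rplp0: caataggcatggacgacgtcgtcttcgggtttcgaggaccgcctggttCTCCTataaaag
Rpl5: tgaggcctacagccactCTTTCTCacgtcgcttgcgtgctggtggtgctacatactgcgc

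The capitals of Rplp2 and Rps6 begin at the annotated start. Those of Rps13 begin 12 and those of Rplp0 13 bases after the start, and those of Rpl5 18 bases before it. In all of these but Rps13, further pyrimidines stand directly before the capitals, so the whole stretch of pyrimidines begins earlier. Annotated starts can differ from the starts in use by some bases. A run with its C within 10 bases of the start was found in 27 of 50 members (54%) and in 30.7% of 22862 genes with 1 entry. It was found in 17 of 29 members that rose from ZT0 to ZT8 and in 9 of 20 that did not pass, so runs near the start were present in both.

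In the 300 bases from 250 before to 50 after the start, on both strands, the ETS core CCGGAA was found in 54% of members and 15.1% of genes and the GC box GGGCGG in 58% and 35.2%. AAGATGGC, a YY1-type motif, was found in 6% and 2.94%, and CACGTG, the E-box bound by the clock factors CLOCK and BMAL1 and by MYC, in 6% and 7.12%. TATAAA between 40 and 15 bases before the start was found in 0% of members and 2.42% of genes. The reverse strand of the ETS core, TTCCGG, holds pyrimidines and can overlap a run counted above. The ETS core was present in 55.2% of the members that rose and in 55% of those that did not pass. These are matches of letters in a window and not binding sites.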

How the data were processed

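Per the labels and the study's methods, RNA bound to HA-tagged ribosomes was made into stranded mRNA libraries and sequenced in pairs, and the authors aligned reads with STAR 2.7.5 to mm10 and estimated gene abundance with RSEM. The deposited table holds expected counts per gene, estimates in which 1.9% to 3.68% of values per library were not whole, and they were rounded here. Members and gene lists were chosen with earlier results of these data known, so no pattern shown by those results is independent support.

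Counts were fitted with edgeR 4.0.16 (TMM, filterByExpr, quasi-likelihood F-test) in R 4.3.3 over the 18 immunoprecipitates with 1 mean per time point, and P was adjusted by Benjamini-Hochberg over 15572 genes at 0.05. The common coefficient of variation between replicates was 19.2%. JTK_Cycle used periods of 20, 24 and 28 h on log2 CPM with a prior count of 2. Scripts were tested on simulated data. Lengths are those of the shortest GENCODE M21 principal transcript or, for genes without one, the median over their transcripts. A length was found for 95.9% of tested genes. The offset for length was a lowess of span 0.2, and starts, biotypes and promoters are from RefSeq GRCm38.p6. DESeq2 1.42.0 was an alternative. Ratios to the input used the genes tested and any other gene with at least 10 counts in the input. A gene without a count in the input was given the level of 3 counts there. The smallest exact permutation P for 3 against 3 libraries is 0.1, so no such test is given. Named members are the tagged gene, 11 members of known role (the P stalk, Rps6, Rpsa, Rps27a, Rpl5, Rpl11, Rpl10, Rps4x, Rps3), the 8 with the lowest cosinor p, the 4 highest and 4 lowest changes from ZT8 to ZT20, the extreme 3 at each end for the ratio to the input and for the level per length, those that failed the filter and those that passed against the majority. In other lists up to 4 examples were taken by lowest cosinor p, with other names given where a count of 5 or fewer called for them after values were seen. The other genes named in the length and input comparisons were also chosen after values were seen. Protein sequences were not analysed here, and values of some single genes are not reported here.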

Additional observations from a re-analysis of the deposited data

How the results depend on the processing

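Scaling (DESeq2 size factors, library totals, upper quartile) kept the member counts of every time contrast within 1.5 times, as did adding pseudogene counts; summed levels moved by less than 1 SD. The filter on low counts mattered: with genes of at least 1 count the cosinor called 50 members, ZT20 against ZT8 48 and the time-point test 49, and with at least 10 counts ZT20 against ZT8 called 1 and the time-point test 18. DESeq2 called 41 by cosinor, 30 among time points and 15 for ZT20 against ZT8. The oligodendrocyte covariate left 0 members by cosinor, 0 among time points and 0 for ZT16 against ZT8, and the 6 libraries of ZT16 and ZT8 alone gave 0. The length offset gave 15 members among time points and medians of 0.25, -0.20 and -0.22 for ZT8 minus ZT0, ZT16 minus ZT8 and ZT20 minus ZT8. JTK_Cycle called 18 when adjusted within each gene alone. Against the input, a ratio of 1.5 gave 29 enriched and 1 depleted, and library totals gave 2 and 1. In none of these did the direction of a median change between time points reverse. Single members did reverse with the length offset, such as Rpl36 between ZT0 and ZT8. Its log2 change went from 0.35 to -0.17, with neither past the threshold. The causes were not tested beyond the construction of each setting.

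Leaving out each library or replicate number gave member counts of 0 to 10 for JTK_Cycle, 0 to 49 for the cosinor, 0 to 51 among time points, 0 to 52 for ZT8 against ZT0, 0 to 60 for ZT16 against ZT8 and 0 to 41 for ZT20 against ZT8. Medians ranged from 0.45 to 0.73, from -0.82 to -0.22 and from -0.62 to -0.32 in the same order of contrasts. Member counts under other settings or without libraries stand without the share over all genes in the same fit, which can move as well. Of the values for named members, 3438 kept their side of the threshold, 137 gained it and 362 lost it. Replicate numbers did not pair the libraries: deviations of same-numbered libraries correlated between -0.151 and 0.176 (median -0.00415), with 4 of 45 pairs over 0.1. With the replicate block JTK_Cycle called 1 member, the cosinor 12, the time-point test 12, ZT8 against ZT0 46, ZT16 against ZT8 39 and ZT20 against ZT8 0. Depth limits the members Rps23rg1 and Rps3a3, with 18 counts each over all immunoprecipitates.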
